A study of Acer rubrum with 15 samples.

Results

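The laccase regulator miR397 was followed in leaves taken from cuttings of the red maple cultivar Acer rubrum L. 'Autumn Blaze' under different light and temperature. Its members were taken by name, as the mature and hairpin entries of the deposited small-RNA table whose name starts with miR397. They were 8 of the 343 mature and hairpin entries, 4 of each type, and together held 20270.0 reads. The study crossed light and temperature for 14 days and took leaves from 5 groups of 3 libraries each, 15 in all. CC was full light (100%) with days of 30 °C and nights of 20 °C, and CL was 40% light at the same warm temperatures. LC was full light with days of 15 °C and nights of 5 °C, and LL was 40% light at the same cool temperatures. Control was untreated leaf material of day 0, labelled as a mix of leaves, for which no light level or temperature is given. All groups were cuttings of the same cultivar raised in 1 greenhouse. The libraries held 15652847 to 20822592 counted reads, of which 1883421 to 4300496 carried a known or predicted miRNA name. The labels call the 3 libraries of a group biological replicates, without stating that they are separate plants. The p-values here therefore set differences between groups only against the spread among these samples, which may be technical. No miRNA was used as a marker of a leaf cell type, so the tissue label was not checked.

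miR397 is a conserved plant miRNA that guides the cleavage of mRNAs of laccases. Laccases are multicopper oxidases of the cell wall that oxidise monolignols, the building blocks of lignin. In Arabidopsis, miR397 belongs with miR398, miR408 and miR857 to the miRNAs that accumulate when copper is short, a response switched on by the transcription factor SPL7 that lowers copper use by dispensable proteins. miR397 has also been described in Arabidopsis as a miRNA that accumulates in the cold.

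Each entry of the table stands for 1 or more names from the public miRNA registers. miR397a_3 carried 19 names with 17 species prefixes, among them those of Arabidopsis, rice, poplar, grapevine and soybean. miR397a_5 carried 2 names of apple, miR397a_6 carried 2 names, of flax and Brachypodium, and miR397-5p_1 carried 1 name of tomato. The mature entry of miR397a_3 held 87.5% of all miR397 reads, and 97.6% with its hairpin entry. How the authors divided reads between near-identical names, and between the mature and the hairpin entry of a name, is not given in the sources used here, so the sum of all 8 entries (the family sum) is the main measure.

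The other entries, apart from the mature entry of miR397a_5, held few reads. The mature entry of miR397-5p_1 held 7 reads over the 15 libraries and that of miR397a_6 held 5. The hairpin entries of miR397-5p_1, miR397a_5 and miR397a_6 held 31, 35 and 5 reads. Of the 31 hairpin reads of miR397-5p_1, 22 lay in the Control libraries, as did 18 of the 35 of miR397a_5, of which a further 14 lay in LL. These 5 entries did not pass the filter on low counts and were not tested singly. The 3 entries that passed were the mature entries of miR397a_3 and miR397a_5 and the hairpin entry of miR397a_3.

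Day 0 leaves held by far the most miR397, and leaves after 14 days in warm full light the least. In reads, the family sum was 5919, 3880 and 5481 in the Control libraries 1 to 3. It was 834, 879 and 1699 in LL and 375, 203 and 140 in LC. It was 188, 203 and 296 in CL and 95, 41 and 37 in CC. The order of the groups can thus be read from the raw counts, with LC and CL side by side.

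Levels are given below in CPM, counts per 1000000 reads of the tested mature and predicted miRNAs, scaled with edgeR's TMM (trimmed mean of M-values) factors. The Control libraries stood at 2423, 1459 and 1692 CPM, a mean of 1858 ± 503 CPM (SD, n = 3 here and throughout). The LL libraries stood at 316, 389 and 627 CPM (444 ± 163), all below each Control library. The LC libraries stood at 151, 76.6 and 63.8 CPM (96.9 ± 46.8). The CL libraries lay within that range, at 67.2, 70.6 and 101 CPM (79.7 ± 18.8). The CC libraries stood at 30.3, 16.9 and 14.8 CPM (20.6 ± 8.39), below every other library. Measured against all reads of a library instead, miR397 was 236 to 359 reads per 1000000 in Control and 1.84 to 4.61 in CC.

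**Figure D1:**
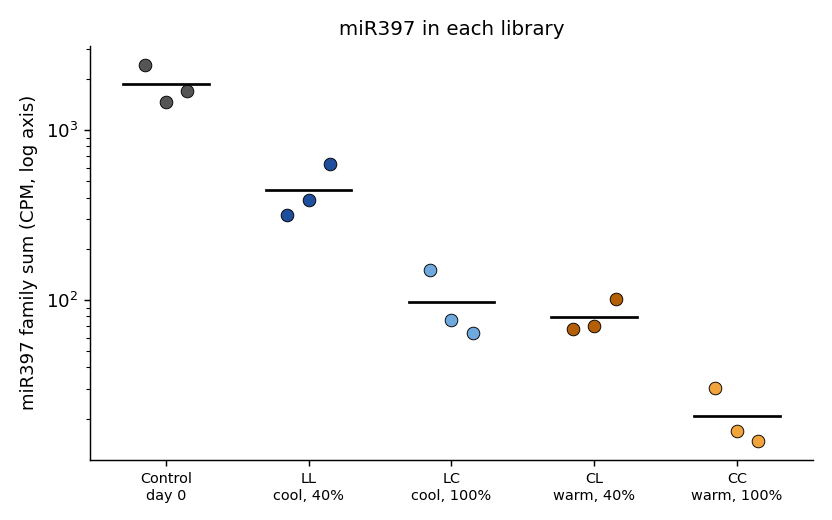
miR397 family sum in CPM (log axis) in each of the 15 libraries by group, where points are libraries and lines are group means. The Control libraries (1459 to 2423 CPM) lie above all others, the CC libraries (14.8 to 30.3 CPM) below all others, and LC and CL overlap.

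Against day 0, miR397 was lower in every regime. The log2 changes below are given ± SE, with adjusted p from edgeR's quasi-likelihood test and Benjamini-Hochberg adjustment over the 34 families tested, and a family was called at an adjusted p under 0.05. In CC the family sum was 89.5-fold lower than in Control (log2 change -6.48 ± 0.50, adjusted p = 1.58e-07), in a comparison where 32.4% of families were called. In CL it was 23.3-fold lower (-4.54 ± 0.46, adjusted p = 2.28e-06; 38.2% called) and in LC 19.1-fold lower (-4.26 ± 0.45, adjusted p = 6.13e-06; 50% called). In LL it was 4.18-fold lower (-2.06 ± 0.41, adjusted p = 0.00259; 35.3% called). The Control libraries overlapped with none of the treated ones. These 4 comparisons share the Control libraries. Without LC replicate 1, the highest LC library, the change of LC against Control was -4.85. Day and treatment cannot be told apart here, as untreated leaves of day 14 were not analysed here. In bulk leaf samples, fewer cells that make a miRNA and less of it per cell cannot be told apart either.

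The comparisons of cool with warm leaves asked how temperature bore on leaf miRNAs at each light level. miR397 was higher in the cool at both. Under full light it was 4.67-fold higher in LC than in CC (2.22 ± 0.42, adjusted p = 0.000705), and the groups did not overlap. In that comparison 52.9% of families were called. Under 40% light it was 5.57-fold higher in LL than in CL (2.48 ± 0.42, adjusted p = 0.000426; 35.3% called), again with no overlap; by DESeq2 the change was 1.88. The 2 temperature effects differed by 0.25 ± 0.57 on the log2 scale (adjusted p = 0.797, edgeR's quasi-likelihood test of the interaction; 29.4% of families called). The 95% interval of that difference ran from -0.98 to 1.48, so a difference of either sign was within the error.

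The comparisons of shaded with fully lit leaves asked the same of light at each temperature. miR397 was higher under 40% light at both. In the warm it was 3.84-fold higher in CL than in CC (1.94 ± 0.42, adjusted p = 0.00251; 32.4% of families called). This change was 2.56 without CC replicate 1, the highest CC library. In the cool it was 4.58-fold higher in LL than in LC (2.20 ± 0.41, adjusted p = 0.000535; 47.1% called). In both comparisons the groups did not overlap.

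Across the diagonals of the design, LL and CC stood farthest apart and LC and CL were not distinguished. miR397 was 21.4-fold higher in LL than in CC (4.42 ± 0.46, adjusted p = 3.18e-06; 26.5% of families called). LC and CL differed by 0.28 ± 0.40 on the log2 scale (95% interval -0.58 to 1.14, adjusted p = 0.615; 44.1% called). The sign of that difference turned with library size only (-0.28), with TMM computed on the families themselves (-0.48), by DESeq2 (-0.45) and without LC replicate 1 (-0.31). From high to low the order of the means was therefore Control, LL, then LC and CL, then CC, where LC and CL were the only neighbours that did not differ beyond their error. LC replicate 1 also stood apart in miR398, as given with the copper families below.

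**Figure D2:**
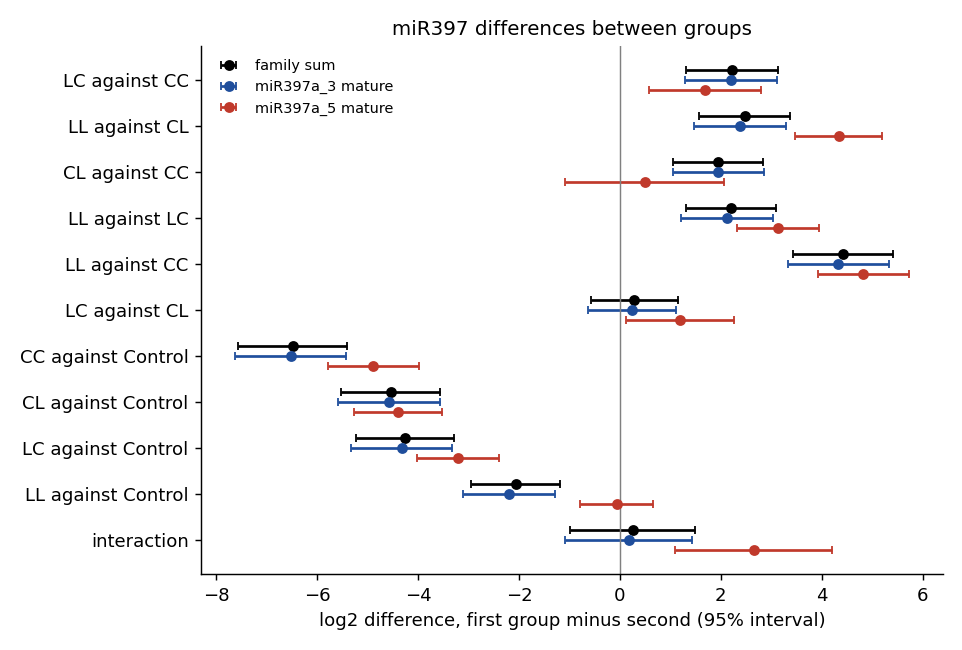
Log2 differences with 95% intervals for the miR397 family sum and the mature entries miR397a_3 and miR397a_5 in the 10 pairs of groups and the interaction (temperature effect at 40% light minus that at 100% light). The 3 measures take the same side of 0 in the comparisons that passed for the family sum. miR397a_5 stands farthest from the other measures in LL against CL (4.33), in LL against Control (-0.07) and in the interaction (2.65).

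The abundant mature entry miR397a_3 followed the family sum, which it largely makes up. It held 5384, 3390 and 4822 reads in the Control libraries and 657, 702 and 1417 in LL. It held 318, 177 and 118 reads in LC, 164, 179 and 258 in CL, and 80, 34 and 36 in CC. In CPM its means were 1656 ± 487 in Control, 361 ± 144 in LL, 82.7 ± 39.4 in LC, 69.7 ± 16.2 in CL and 18.0 ± 6.52 in CC. Single entries were tested among the 179 mature and predicted miRNAs that passed the filter, with edgeR's quasi-likelihood test and adjustment over all of them. miR397a_3 was 4.59-fold higher in LC than in CC (2.20 ± 0.42, adjusted p = 0.00126) and 5.17-fold higher in LL than in CL (2.37 ± 0.42, adjusted p = 0.00211). In these comparisons 42.5% and 26.8% of the miRNAs were called. It was 3.87-fold higher in CL than in CC (1.95 ± 0.42, adjusted p = 0.0104; 17.3% called), a call lost without CC replicate 2 (adjusted p = 0.0641). It was 4.36-fold higher in LL than in LC (2.13 ± 0.41, adjusted p = 0.00143; 50.8% called). Against Control it was 91.8-fold lower in CC (adjusted p = 2.48e-06; 19% called) and 4.58-fold lower in LL (adjusted p = 0.00455; 16.2% called).

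The minor mature entry miR397a_5 held far fewer reads than miR397a_3. In the shaded cool leaves the libraries of miR397a_5 overlapped with those of day 0, while those of miR397a_3 lay below them. The reads of miR397a_5 were 57, 49 and 89 in the Control libraries, 46, 50 and 72 in LL and 6 in each LC library. They were 4, 2 and 3 in CL and 3, 2 and 1 in CC. In CPM the Control libraries stood at 23.3, 18.4 and 27.5 and the LL libraries at 17.4, 22.1 and 26.6, so the 2 groups overlapped. The LC libraries stood at 2.41, 2.26 and 2.73 CPM, the CL libraries at 1.43, 0.696 and 1.03 and the CC libraries at 0.956, 0.825 and 0.399. The levels of LC, CL and CC rest on 18, 9 and 6 reads in all.

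miR397a_5 did not differ from day 0 in LL beyond its error (-0.07 ± 0.33, 95% interval -0.79 to 0.66, adjusted p = 0.923, edgeR's quasi-likelihood test). In CC it was 29.6-fold lower than in Control (adjusted p = 4.13e-06; 19% called), beside 91.8-fold for miR397a_3. In LC it was 9.21-fold lower and in CL 21.1-fold lower, beside 20.0-fold and 23.7-fold for miR397a_3. Whether these entries differ in their change was not tested. miR397a_5 was 20.2-fold higher in LL than in CL (4.33 ± 0.40, adjusted p = 1.49e-05) and 8.80-fold higher in LL than in LC (3.14 ± 0.37, adjusted p = 3.61e-05). Under full light it was 3.22-fold higher in LC than in CC (1.68 ± 0.51, adjusted p = 0.0175), a call lost without CC replicate 3 (adjusted p = 0.069). Between CL and CC it did not pass (0.49 ± 0.72, 95% interval -1.09 to 2.07, adjusted p = 0.688). Its temperature effect was larger under 40% than under full light, with an interaction of 2.65 ± 0.71 (adjusted p = 0.0132), in a test that called 34.6% of the miRNAs. That call was lost without CC replicate 1, CC replicate 2 or CL replicate 2 (adjusted p = 0.139, 0.0937 and 0.0966), and the interaction was 1.89 without CL replicate 2. For miR397a_3 the interaction was 0.17 ± 0.57 (95% interval -1.08 to 1.42, adjusted p = 0.865), and its sign turned under several other settings, such as -0.11 by DESeq2.

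**Figure D3:**
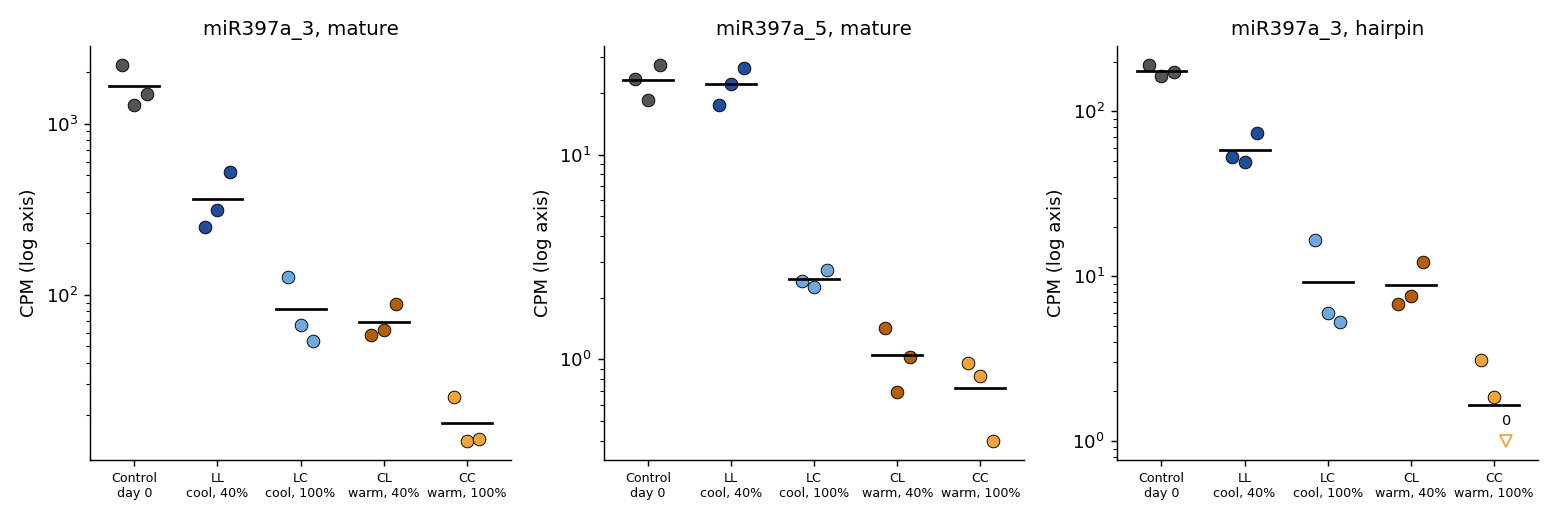
Levels of the 3 entries that passed the filter, in CPM (log axes) in each library by group, where points are libraries, lines are group means and the open triangle marks a library with 0 reads. The hairpin entry is scaled within the fit that includes hairpins, the mature entries within the fit without them. miR397a_3 is lower in LL (mean 361 CPM) than in Control (1656 CPM), while for miR397a_5 the 2 groups overlap (means 22.1 and 23.1 CPM).

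The makeup of the mature miR397 reads is a quantity that does not depend on scaling between libraries. It rests on the same counts as the levels above, so it is not separate support for them. miR397a_5 held 1.05%, 1.42% and 1.81% of the mature reads in the Control libraries, with exact (Clopper-Pearson) 95% intervals of 0.794% to 1.35%, 1.05% to 1.88% and 1.46% to 2.22%. In LL it held 6.54%, 6.63% and 4.84%, with intervals of 4.83% to 8.63%, 4.96% to 8.65% and 3.80% to 6.05%. Every LL interval lay above every Control interval. The intervals treat reads as independent draws and cover counting error only. Reads are PCR copies without molecular identifiers, so the intervals may be too narrow. In CL the share was 2.37%, 1.10% and 1.15%, in LC 1.85%, 3.28% and 4.84%, and in CC 3.61%, 5.56% and 2.70%. With 36 to 83 mature reads in each CC library, the CC intervals reached from 0.0684% up to 18.7%. All 3 CC shares and all 3 LC shares lay above the Control shares, and neither group was tested against Control or LL in this measure.

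Shares were compared over libraries by 12 exact two-sided permutation tests, 6 on miR397a_5 and 6 on hairpin reads, adjusted together. Tests that pooled groups shuffled libraries without regard to the other factor. Between LL and Control the difference was 4.58 percentage points, and between LL and CL it was 4.46. The exact permutation p was 0.1 in both, the smallest that 3 against 3 libraries can give (adjusted p = 0.193). Over both light levels the share was 4.66% in the 6 cool libraries and 2.75% in the 6 warm ones (exact permutation p = 0.0952, adjusted p = 0.193). Over both temperatures it was 3.77% under 40% light and 3.64% under full light (exact permutation p = 0.909, adjusted p = 0.909). Under full light alone the share was 3.32% in LC and 3.96% in CC, a difference of -0.63 percentage points (exact permutation p = 0.6, adjusted p = 0.72). Between the 12 libraries of day 14 (mean 3.71%) and the 3 of day 0 (1.43%) the exact permutation p was 0.0484, and 0.193 after adjustment.

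**Figure D4:**
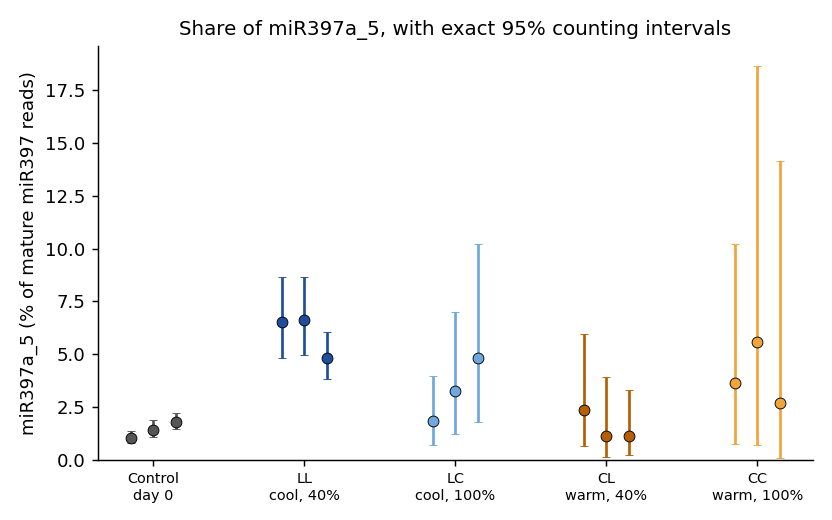
Share of miR397a_5 among the mature miR397 reads of each library in percent, by group, with exact 95% counting intervals. The LL libraries (4.84% to 6.63%) lie above the Control libraries (1.05% to 1.81%), and the CC intervals are wide.

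The hairpin entry of miR397a_3 moved with its mature entry. It held 459, 427 and 550 reads in the Control libraries, 123, 119 and 204 in LL and 50, 18 and 15 in LC. It held 18, 22 and 34 reads in CL and 11, 5 and 0 in CC. It was tested in a fit of 284 mature, predicted and hairpin entries with edgeR's quasi-likelihood test, where it was 6.30-fold higher in LL than in LC (2.66 ± 0.77, adjusted p = 0.015; 44.4% of entries called). It was higher in LC than in CC (2.44 ± 0.80, adjusted p = 0.0334; 35.6% called) and in LL than in CL (2.73 ± 0.77, adjusted p = 0.0244; 23.9% called). The call of LC against CC did not hold without CC replicate 2 (adjusted p = 0.0896) or without LC replicate 1 (adjusted p = 0.201; the change was 1.503 without the latter, 3.23 without CC replicate 1 and 1.72 without CC replicate 3). That of LL against CL was lost without any 1 of the 6 libraries (adjusted p = 0.0584 to 0.109). That of LL against LC was lost without LC replicate 2 or 3 (adjusted p = 0.0593 and 0.0699), and its change was 3.34 without LC replicate 1. Its differences of 2.37 ± 0.80 between CL and CC (adjusted p = 0.0704; 12.3% called) and -1.59 ± 0.74 between LL and Control (adjusted p = 0.159; 10.9% called) did not pass. By DESeq2 both passed, at 2.38 (adjusted p = 0.00531) and -1.62 (adjusted p = 0.0208).

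Of all miR397 reads, hairpin entries held 8.01% to 11.3% in the Control libraries and 12.4% to 15.7% in LL. In CL they held 10.1% to 11.8% and in LC 9.85% to 13.6%. In CC they held 12.6%, 12.2% and 0%, the last being 0 of 37 reads, with an exact 95% interval up to 9.49%. Between LL and Control the exact permutation p was 0.1, again the smallest possible (adjusted p = 0.193), and between the cool and the warm libraries it was 0.113 (12.9% against 9.60%, adjusted p = 0.193).

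Of the other copper and laccase families looked for, miR398 and miR408 were in the table and miR857, miR528 and miR1444 had no entry. miR398 targets copper/zinc superoxide dismutases, and miR408 targets mRNAs of copper proteins such as plantacyanin. Both were called higher in LC than in CC and in LL than in CL, as was miR397. In LC against CC the median log2 change of miR398 and miR408 was 3.29, beside 0.51 over all families. miR398 was 14.8-fold higher there (log2 change 3.89, adjusted p = 0.00212, edgeR's quasi-likelihood test), a value that rests on LC replicate 1: without it the change was 2.15 (adjusted p = 0.0109), and without CC replicate 1 it was 4.75. miR408 was 6.51-fold higher (adjusted p = 0.0109). In LL against CL their median was 2.74, beside 0.47 over all families. The call of miR398 in LL against CL was lost without CL replicate 2 (adjusted p = 0.0771). For miR408 the call did not hold when LL replicate 1, LL replicate 2, CL replicate 2 or CL replicate 3 was left out (adjusted p = 0.0927 to 0.127), nor with library size only (adjusted p = 0.0785).

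LC replicate 1 was the highest LC library in miR397, miR398 and miR408. It stood at 452931 CPM of miR398 against 60121 and 46186 in the other LC libraries, at 1119 CPM of miR408 against 158 and 807, and at 151 CPM of miR397 against 76.6 and 63.8. Without it, miR397 was still called higher in LC than in CC (1.87, adjusted p = 0.00395) and higher in LL than in LC (2.52, adjusted p = 0.000596). Likewise CC replicate 1 was the highest CC library in all 3 families.

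In the comparisons of light, miR408 was called higher in CL than in CC (10.5-fold, log2 change 3.40, adjusted p = 0.00417, and 4.22 without CC replicate 1) and in LL than in LC (8.25-fold, adjusted p = 0.00556). miR398 did not pass between CL and CC (1.10 ± 0.77, 95% interval -0.57 to 2.77, adjusted p = 0.318). Between LL and LC it did not pass over all libraries (0.34 ± 0.76, 95% interval -1.31 to 1.99, adjusted p = 0.775) but was called higher in LL without LC replicate 1 (2.04, adjusted p = 0.0203). Its sign turned without LC replicate 2 (-0.082) or LC replicate 3 (-0.12). Whether the change of either family differs from that of miR397 was not tested.

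Against Control, both families were called lower in CC, and miR408 was called lower in LC (-3.17, adjusted p = 0.0047). In CC, miR398 was at -4.58 (-5.56 without CC replicate 1) and miR408 at -5.87 (-6.52 without CC replicate 1 and -5.19 without Control replicate 2). In LC, miR408 was at -3.76 without LC replicate 1 and -2.10 without Control replicate 2, and miR398, which did not pass over all libraries (-0.70, adjusted p = 0.477), was called lower without LC replicate 1 (-2.60, adjusted p = 0.00595). Both were called lower in CL, for miR408 with a call that was lost without CL replicate 2, CL replicate 3 or Control replicate 2 (adjusted p = 0.0677, 0.0724 and 0.133). In LL neither differed from Control beyond its error, at -0.36 ± 0.76 for miR398 (95% interval -2.01 to 1.29, adjusted p = 0.668) and -0.12 ± 0.73 for miR408 (-1.70 to 1.45, adjusted p = 0.868; 0.65 without Control replicate 2). There miR397 was 4.18-fold lower (95% interval of the log2 change -2.95 to -1.18), and whether the families differ in this change was not tested. No interaction passed for any of the 3 families (adjusted p = 0.702 for miR398 and 0.81 for miR408), and that of miR398 changed sign without LC replicate 1 (-0.76 against 0.75).

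**Figure D5:**
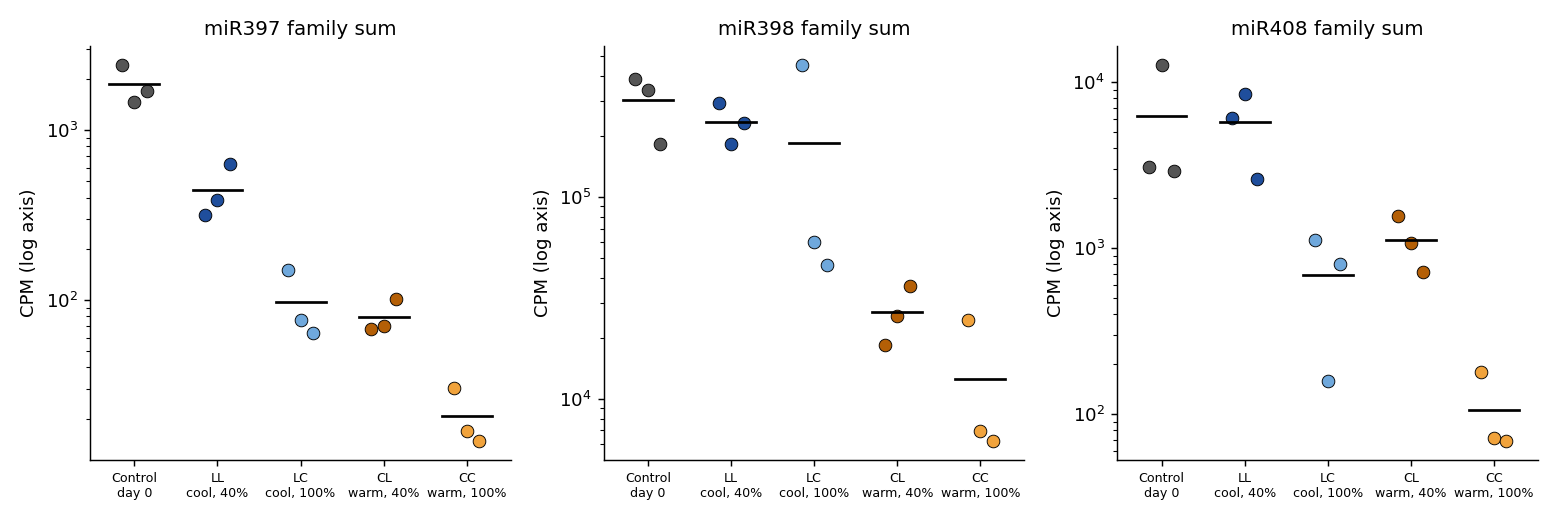
Family sums of miR397, miR398 and miR408 in CPM (log axes) in each library by group, where points are libraries and lines are group means. All 3 are lowest on average in CC, LC replicate 1 lies apart from the other LC libraries in miR398 (452931 against 60121 and 46186 CPM), and for miR398 and miR408 the LL and Control libraries overlap.

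Of a list of 9 families described as cold-responsive in Arabidopsis, 7 were measured, and miR165 and miR402 had no entry. In LC against CC, 3 of the 7 were called, where 52.9% of all families were. miR166, which targets HD-ZIP factors, and miR408 were called higher and miR169, which targets NF-YA factors, was called lower (-2.54 ± 0.69, adjusted p = 0.00828, edgeR's quasi-likelihood test; -3.98 without LC replicate 1). The call of miR166 was lost without CC replicate 1, CC replicate 2 or LC replicate 1 (adjusted p = 0.08 to 0.137) and by DESeq2 (adjusted p = 0.111). In LL against CL, 3 of the 7 were called, where 35.3% of all families were. miR169 (3.06 ± 0.72, adjusted p = 0.00687) and miR408 were called higher and miR393, which targets auxin receptors, was called lower (-0.65 ± 0.22, adjusted p = 0.0379; -1.26 by DESeq2). The call of miR169 was lost without CL replicate 2 (adjusted p = 0.0561; 3.72 without CL replicate 1), and that of miR393 without CL replicate 1 or 3 (adjusted p = 0.0545 and 0.158). The median log2 change of the 7 was 0.18 and 0.39, beside 0.51 and 0.47 over all families. miR172, miR319 and miR396 did not pass in either comparison, and with the replicate block miR319 passed in LL against CL (1.32, adjusted p = 0.033).

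Over the 15 libraries, which share 5 group means, the family sums most like miR397 in log2 CPM were miR398 (Pearson's r = 0.871, Spearman's rho = 0.843) and miR408 (0.843 and 0.836). Next came miR399, a regulator of phosphate uptake (0.828 and 0.864), miR827, a regulator of SPX-domain proteins (0.814 and 0.836), and miR170, a regulator of GRAS factors (0.638 and 0.704), out of 33 families compared. For deviations from the group means, r was 0.774 for miR398 and 0.815 for miR399 but -0.00051 for miR408 and -0.05 for miR827. These r values include LC replicate 1, the highest LC library in miR397 and miR398, and miR399 also spread widely in LC (758 ± 593 CPM). All are descriptions without a test.

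The group order also differed between these families. miR399 and miR827 were higher on average in LL (6023 ± 1412 and 738 ± 24.6 CPM) than in Control (2024 ± 525 and 201 ± 21.3 CPM), the reverse of miR397. Among 177 single miRNAs the most alike was the predicted novel_mir68 (r = 0.936, rho = 0.957). It stood at 637 ± 54.9 CPM in Control, 362 ± 47.7 in LL, 70.3 ± 52.1 in LC, 22.6 ± 5.36 in CL and 3.32 ± 2.89 in CC. It was followed by novel_mir3 (r = 0.887), the entries miR398 (0.880) and miR398b (0.872) and miR399a_6 (0.866).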

How the data were processed

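Small RNA was sequenced by the authors from total RNA of leaves, from libraries made with a small-RNA kit, PCR and gel size selection, per the labels' protocols. The counts were deposited as raw reads per small-RNA entry, per the file headers. The TPM columns beside them were made by the authors as reads per 1000000 reads of the library, with 0.001 in place of 0, and no test used them. Trimming, aligner, genome build and miRNA database: not given in the sources used here. Entries carried names without sequences.

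Mature and hairpin reads with the same miRNA number were summed to 35 families. After edgeR's filterByExpr, 34 families and 179 mature and predicted miRNAs were tested, and 284 entries when hairpins were added. For the families and the 179 miRNAs, library sizes and TMM factors (0.616 to 1.57) came from the mature and predicted miRNAs. The fit of 284 entries took its own from all its entries, hairpins included, so its values are on another scale. edgeR 4.0.16 (R 4.3.3) fitted 1 mean per group over 15 libraries with its quasi-likelihood test, for 10 pairs of groups and the interaction. The SE was derived from each test's p-value and its log2 change. The fits were checked on simulated data for LC against CC. There, 37.3% of families and 18.1% of miRNAs with a 2-fold change were called, and 76.4% and 59.5% with a 4-fold change. Of unchanged ones, 2.08% of families and 0.863% of miRNAs were called.

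Same-numbered libraries of LL and CL deviated together from their group means (Pearson's r over families 0.772, 0.52 and 0.585). Those of CL and CC did so as well (0.309, 0.258 and 0.144). The numbers may thus pair the libraries in these 2 comparisons, which the labels do not state. Libraries of LC and LL with the same number deviated in opposite directions (-0.603, -0.748 and -0.383), so such values are not proof of a pairing.

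Members, lists and tests were chosen with earlier results of these data known. The text names all members, copper and cold families, and the 5 most alike families and miRNAs. Alternatives were other scalings, filters, a replicate block, DESeq2 1.42.0, fewer groups, mature entries only, the most abundant member, and each library left out. TMM computed on the families, and all refits of the copper and cold families, were added after seeing the data. Python 3.11.15, scipy 1.17.1 and matplotlib 3.10.9 were used for shares and figures.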

Additional observations from a re-analysis of the deposited data

Results flagged for a closer look

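Over all 15 libraries, the temperature effect on miR397a_5 was called different between the light levels, in a test that called 34.6% of the miRNAs. The difference of 2.65 on the log2 scale (adjusted p = 0.0132, edgeR's quasi-likelihood test of the interaction) came from 168 reads in LL against 9 in CL, and 18 in LC against 6 in CC. The 3 LL libraries lay above the 3 CL libraries and the 3 LC libraries above the 3 CC libraries, so the direction was the same at both light levels. With 1 library left out the difference ranged from 1.89 to 2.88 (adjusted p = 0.0142 to 0.139 over all alternatives). The call was lost without CC replicate 1, CC replicate 2 or CL replicate 2 (adjusted p = 0.139, 0.0937 and 0.0966). How many reads of near-identical names went to this entry was not tested.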

How the results depend on the processing

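The 9 family comparisons that passed kept their direction and call in all 153 refits, 17 each, with adjusted p up to 0.0367. With 1 library left out they ranged from 1.87 to 2.55 (LC against CC), 2.05 to 2.67 (LL against CL), 1.75 to 2.56 (CL against CC), 1.75 to 2.52 (LL against LC) and 4.17 to 4.73 (LL against CC), and against Control from -7.02 to -6.32 (CC), -4.76 to -4.33 (CL), -4.85 to -4.03 (LC) and -2.52 to -1.93 (LL). The 2 that did not pass changed sign: LC against CL was -0.28 with library size only, -0.48 with TMM on the families and -0.45 by DESeq2 (-0.31 to 0.48 with 1 library left out), and the interaction was -0.031 with relative-log-expression factors, -0.019 with all reads as library size and -0.083 by DESeq2 (-0.52 to 0.44). The cause was not tested.

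For single entries, sign changes were seen where no test passed. miR397a_3 in LC against CL was -0.31 with library size only, -0.051 with the stricter filter and -0.065 with hairpin entries added (-0.33 to 0.45 with 1 library left out). Its interaction was -0.11 with relative-log-expression factors, -0.047 with library size only, -0.10 with all reads as library size, -0.12 without a filter, -0.083 with the stricter filter, -0.11 by DESeq2 and -0.068 with only the groups compared (-0.60 to 0.36). The hairpin entry of miR397a_3 in LC against CL was -0.22 with library size only, -0.011 with the stricter filter and -0.10 with the replicate block (-0.78 to 0.22), and its interaction -0.033 with all reads as library size (-0.67 to 1.05). miR397a_5 in LL against Control ranged from -0.50 to 0.05.

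The replicate block changed no call of miR397 in LL against CL (2.49 for the family sum) or CL against CC (2.00), where same-numbered libraries deviated together. In the other pairs of groups r ran from -0.75 to 0.54. It was also positive for each number between CC and LC, between CC and LL and between Control and LL. There the block gave 2.22 for the family sum in LC against CC and changed no call of the family sum. It took the miR397a_3 hairpin entry in LC against CC to 2.44 with adjusted p = 0.050. The counts of families called were within 1.5 times of those given except 21 against 13 (CL against Control, DESeq2), and 11 against 17 (LC against Control) and 5 against 9 (LL against CC) with TMM on the families. All reads as library size moved the median log2 change of families by -0.31 to 0.21. miR397a_5 could not be tested in comparisons of CC with CL or LC, or of LC with CL, on these groups alone, because it fell under the filter. The precision of miR397a_5 is limited by its 6 reads in CC, 9 in CL and 18 in LC.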

Other observations

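The table also held an Rfam precursor entry for MIR397, outside the named members. It had 3 reads in all, 1 each in Control replicates 1 and 2 and in LL replicate 2, and 0 in the other 12 libraries.

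The TPM values that the authors deposited for the mature entry of miR397a_3 were 326, 206 and 260 in the Control libraries and 36.2, 38.1 and 68.7 in LL. They were 19.5, 10.95 and 7.54 in LC, 8.62, 8.60 and 12.4 in CL and 3.88, 1.65 and 1.79 in CC, the same order of groups as in CPM.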
